A study of Mus musculus with 8 samples.

Results

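Colonocytes, the absorptive cells that line the large intestine, were described here in a droplet single-cell RNA library of sorted mouse large intestinal cells. A barcode was counted as a colonocyte when it held at least 500 detected genes, at most 20% of its unique molecular identifiers (UMIs, each a counted RNA molecule) from mitochondrial genes, at least 20 UMIs of Slc26a3 and Car4 together, and fewer than 10 UMIs of the proliferation genes Mki67 and Top2a together. By this rule 114 barcodes were colonocytes, 1.84% of the 6188 barcodes of the library that passed the gene and mitochondrial limits (95% exact binomial interval 1.52 to 2.21, counting error only). The library held 8646 deposited barcodes, and the 4 single-cell libraries of the study held 19539. The comparator was the 5180 other retained barcodes with at least 1 UMI of Epcam, the epithelial cell adhesion molecule, called other epithelial barcodes below. All samples were of the C57BL/6 strain. For sorting, C57BL/6 and Lgr5-eGFP-ires-CreERT2 mice on that background were used, and age, sex and the number of animals are not given in the sources used here. Live cells were sorted together with enrichment for LGR5+ stem cells and for CD31+ PDPN+ LYVE1+ lymphatic endothelial cells, so the share of colonocytes is set in part by the sort. A second library was prepared in the same way from small intestine, and Visium spatial sections of wild-type large and small intestine (WT in the titles), 10 µm thick, were made as technical duplicates of each tissue. The other libraries, small intestinal organoids at passage 1 grown alone or in coculture, held 5 of 540 and 28 of 1037 retained barcodes that passed the same rule and are not described further.

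The surface of the large intestine is covered by colonocytes that arise from stem cells at the crypt base, stop dividing and move upward before they are shed. They recover salt and water from the lumen through apical exchangers, channels and carbonic anhydrases, oxidise fatty acids and sulfide made by bacteria, and hold a glycoprotein coat and tight junctions against the microbiota. Slc26a3 encodes the apical chloride and bicarbonate exchanger, Car4 a carbonic anhydrase anchored on the outer membrane, Aqp8 a water channel and Krt20 a keratin of differentiated gut epithelium.

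Slc26a3 and Car4 chose the cells, so their levels are given as a description. The 250 bases before the annotated start of each marker gene are shown because these genes name the cells. They are from RefSeq (GRCm38.p6), printed 5′ to 3′ on the strand of the gene, and capitals mark matches to short motifs that are named after the sequences.
Slc26a3, chr12:31437969-31438218, plus strand: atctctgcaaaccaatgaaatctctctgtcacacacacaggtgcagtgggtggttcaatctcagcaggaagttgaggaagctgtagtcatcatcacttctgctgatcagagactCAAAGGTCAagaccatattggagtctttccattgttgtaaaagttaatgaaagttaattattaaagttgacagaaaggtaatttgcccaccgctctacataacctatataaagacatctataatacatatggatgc
Car4, chr11:84957504-84957753, plus strand: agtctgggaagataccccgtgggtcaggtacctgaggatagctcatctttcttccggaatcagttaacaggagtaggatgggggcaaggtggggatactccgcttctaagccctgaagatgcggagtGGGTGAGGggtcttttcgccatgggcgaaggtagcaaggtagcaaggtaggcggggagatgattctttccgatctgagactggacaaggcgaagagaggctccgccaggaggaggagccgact
Aqp8, chr7:123462044-123462293, plus strand: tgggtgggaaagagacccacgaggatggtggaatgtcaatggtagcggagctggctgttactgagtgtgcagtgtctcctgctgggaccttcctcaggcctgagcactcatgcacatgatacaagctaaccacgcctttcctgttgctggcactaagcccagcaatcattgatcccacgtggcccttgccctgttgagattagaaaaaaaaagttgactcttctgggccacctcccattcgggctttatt
Krt20, chr11:99438154-99438403, minus strand: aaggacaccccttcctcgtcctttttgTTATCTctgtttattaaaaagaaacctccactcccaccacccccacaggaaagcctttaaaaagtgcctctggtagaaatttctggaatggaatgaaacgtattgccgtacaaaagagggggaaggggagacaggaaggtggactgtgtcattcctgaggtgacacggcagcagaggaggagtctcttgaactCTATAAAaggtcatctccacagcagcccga
The motifs searched on both strands were CAAAGNNCA (a form of the site of HNF4 factors), TTTATNG (a form of the CDX site), GGGTGNGG (a form of the KLF site) and AGATAA (a form of the GATA site). Slc26a3 held the HNF4 form 136 bases before the start, Car4 the KLF form 123 bases before it, and Krt20 the GATA form at 223 and the CDX form at 30 bases, both on the opposite strand. At that place the CDX form in Krt20 reads CTATAAA, which overlaps the letters of a TATA box. Aqp8 held no match, which says only that these letters are not in this window. Of the 1836 genes that were higher in colonocytes than in other epithelial barcodes (defined below), 1365 had a promoter in the table. The HNF4 form was in 7.47% of these, against 5.68% of the 11016 matched genes that were tested and 6.29% of the promoters of all 27025 symbols. The corresponding shares were 10.0%, 7.99% and 11.3% for the CDX form, 26.7%, 20.8% and 16.6% for the KLF form, and 8.42%, 7.53% and 11.4% for the GATA form. Base composition was not matched between these sets, and a match is a run of letters, not a bound site.

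Slc26a3 stood at 979 UMIs per 1000000 UMIs (CPM) in the summed colonocytes and at 16.1 CPM in the summed other epithelial barcodes, and Car4 at 1154 and 14.5 CPM. Among single colonocytes Slc26a3 ran from 0 through a median of 935 to 3013 CPM, and Car4 from 0 through 794 to 12414 CPM. UMIs of both genes were found in 107 of the 114 barcodes, of Slc26a3 alone in 5 and of Car4 alone in 2, and 57 barcodes held more Car4 than Slc26a3. Aqp8, which the rule did not use, was at 514 CPM in colonocytes and 2.80 CPM in other epithelial barcodes. It was uneven among the colonocytes: 77 of 114 had a UMI, the median was 110 CPM and the highest 7476 CPM. After thinning every barcode to 10000 UMIs, 57.1% of 112 colonocytes and 1.48% of 3977 other epithelial barcodes had an Aqp8 UMI, against 67.5% and 3.51% without thinning. Barcodes with no Epcam UMI, which should lack the gene, had one in 0.895% of cases at a median depth of 4268 UMIs, and in 2.08% after thinning. Krt20 was even: 113 of 114 colonocytes had it, with a median of 1724 CPM and a highest value of 4220 CPM, and its summed level was 1726 CPM against 45.6 CPM. The rule fixed the levels of Slc26a3 and Car4. A barcode with no UMI of a gene may still express it.

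**Figure D1:**
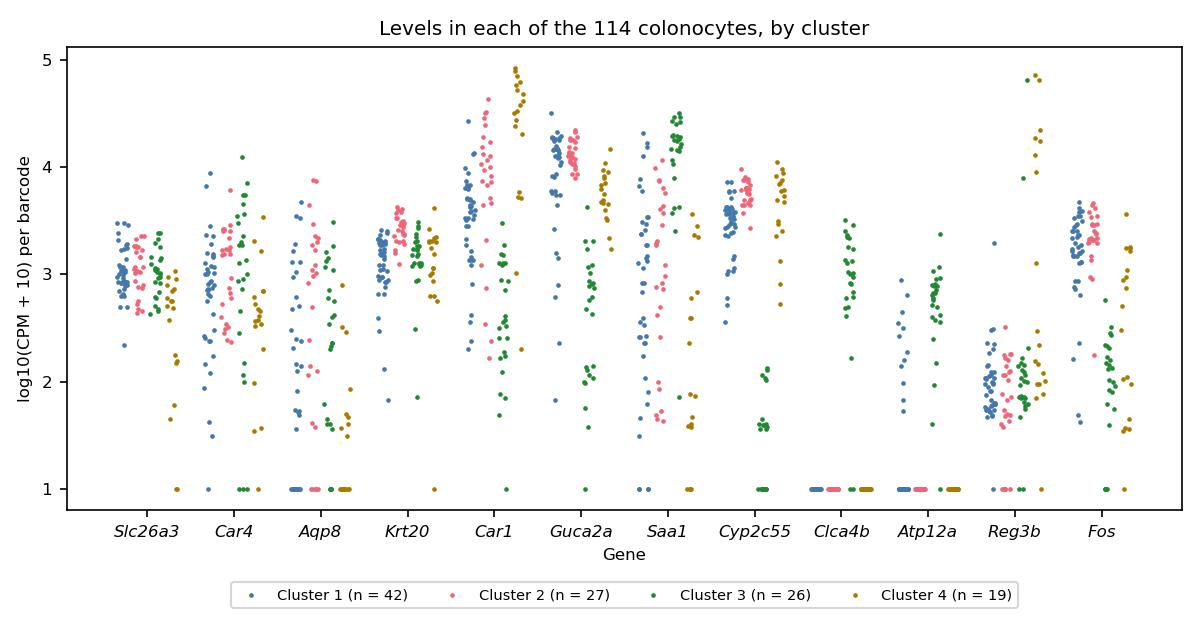
Levels of 12 genes in each of the 114 colonocytes (points), on a log10 axis of CPM plus 10, coloured by the 4 clusters described below. Krt20 is above 0 in all but 1 colonocyte, Clca4b is found in cluster 3 only, and Car1 is low in cluster 3 and high in cluster 4.

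The threshold of the rule cut a continuous range. The 28 Epcam barcodes with 15 to 19 UMIs of Slc26a3 and Car4 had 1167 CPM of Krt20, 36.7 of Aqp8 and 7064 of Guca2a, and the 16 with 20 to 24 UMIs had 1322, 31.9 and 7188 CPM. The goblet mucin Muc2 was at 737 CPM just outside and 356 CPM just inside. Mki67 and Top2a gave a clean break, because no colonocyte held more than 3 of their UMIs and the 7 barcodes that were removed by them held 24 or more. Another 80 barcodes met the Slc26a3 and Car4 limit but not the gene or mitochondrial limit.

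Colonocytes held a median of 26118.5 UMIs (4551 to 76667) and 4318 genes, and other epithelial barcodes 24559.5 UMIs and 4657 genes. Their mitochondrial share was higher, with a median of 14.0% (7.03 to 19.8) against 6.62%, and only 10 colonocytes were under 10%. A doublet score (Scrublet) placed 2 of 114 colonocytes and 283 of 5180 other epithelial barcodes among the barcodes ranked as doublets. No colonocyte barcode was also in the small intestinal library, and 25 barcodes were shared by the 2 tissue libraries in all. The feature named GFP-PLUS in the matrix, whose relation to the transgene the labels do not state, had 0 UMIs in colonocytes. The exact Poisson interval of that count ends at 1.16 CPM, and 3 UMIs, the floor used in ratios, are 0.945 CPM. In other epithelial barcodes GFP-PLUS was at 15.7 CPM, and 927 of those barcodes held it.

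Markers of endothelial, fibroblast, muscle, macrophage, T cell, tuft, enteroendocrine and stem cells had a summed median of 0 per colonocyte, while the goblet list had a median of 846 CPM and the B cell or plasma cell list 90 CPM. Prox1, Cdh5, Myh11, Des, Neurod1, Pou2f3 and Ms4a1 had no UMI in any of them. The summed endothelial, fibroblast and muscle lists were at 3.46, 11.3 and 4.41 CPM, against 756, 9050 and 2424 CPM in barcodes without Epcam. In the other epithelial barcodes the B cell or plasma cell list was at 3248 CPM, and single barcodes reached 78694 CPM of the fibroblast list. An Epcam UMI alone thus did not make that comparator purely epithelial. The goblet list (Muc2, Fcgbp, Clca1, Tff3, Agr2, Spink4) was at 2243 CPM, against 24693 CPM in other epithelial barcodes. Muc2 had a median of 165 CPM in colonocytes and 220 CPM in barcodes without an Epcam UMI, so its typical level in colonocytes was not above that background. In 3 colonocytes the markers of another type exceeded 5000 CPM, in 2 of them the goblet list and in 1 the B cell or plasma cell list, and 1 of the 3 was ranked as a doublet. A single barcode held 90.9% of the Clca1, 87.8% of the Fcgbp, 75.7% of the Zg16 and 73.4% of the Tff3 UMIs of all colonocytes, and 1 barcode held 73.3% of Jchain. Values of these genes below rest on those barcodes.

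Against other epithelial barcodes, most genes of the lists for the brush border, sulfide oxidation and the surface coat were higher in colonocytes, and those for replication and the stem cell compartment were lower. The rule limited Mki67 and Top2a in colonocytes and not in the comparator, and the sort enriched for LGR5+ cells. The ratios of the last 2 lists are therefore a description and no independent finding, and the part of the sort in them was not tested. A gene was called higher or lower when the ratio of summed CPM was at least 2 in either direction, a log2 ratio of 1, among genes with at least 50 UMIs over both pools. Of 14501 genes, 1836 were higher (12.7%) and 4756 lower (32.8%), and the median log2 ratio of all genes was -0.42. Counts under 3 were set to 3 in a ratio and the comparator pool was far larger. A gene near the minimum of 50 UMIs could therefore be called higher but not lower. With that median set to 0, 3062 genes were higher and 3382 lower. There was 1 library and the rule used these values, so no test was made, and intervals cover counting error only. Other scalings put the median of all genes at -0.59 (mean of each barcode's CPM, or CPM without mitochondrial and ribosomal protein genes) or -0.09 (every barcode thinned), and under them the list medians below kept their sign except for the antimicrobial, guanylin and transcription factor lists, which lie near 0.

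Of 24 measured genes of chloride, sodium and water transport, 13 were higher and 5 lower, with a median log2 ratio of 1.22. Without Slc26a3, which chose the cells, 12 of 23 were higher and the median was 1.16. The apical sodium and proton exchanger Slc9a3 was at 142 CPM against 1.72 CPM, a log2 ratio of 6.37 (6.13 to 6.61), and its relative Slc9a2 had a ratio of 4.17. Clca4a, of the calcium-activated chloride channel regulator family, stood at 4.79, the colonic proton and potassium pump Atp12a at 4.44 and the chloride channel Clcn2 at 3.63. The sodium channel subunit Scnn1a was at 2.03, while Scnn1b had 4 UMIs in all colonocytes. The sodium pump subunit Atp1b1 was at 1.16. The 5 lower genes were a smaller share of the list than the 32.8% of all genes that were lower. Of these, Slc12a2, the basolateral cotransporter that loads cells with chloride for secretion, was at 28.3 CPM against 491 CPM (log2 ratio -4.11), the basolateral potassium channel Kcnn4 at -3.24 and the apical chloride channel Cftr at -2.06.

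Of 7 genes of the carbonic anhydrase family, whose active members interconvert carbon dioxide and bicarbonate, 5 were higher. They included Car4, which chose the cells, and Car8 was lower (-3.57). Without Car4 the count was 4 of 6. The cytosolic Car1 was at 13475 CPM in colonocytes and 813 CPM in other epithelial barcodes (log2 ratio 4.05), and Car2 was at 694 and 339 CPM (1.03). Car1 was unequal among cells, with a lowest value of 0, a median of 4104 and a highest of 83446 CPM, and 8 of the 114 barcodes held 50% of its UMIs. In the guanylin pathway, in which secreted peptides act on a guanylate cyclase receptor in the apical membrane, Guca2a (guanylin) had a log2 ratio of 3.60, with a median of 8412 CPM per colonocyte. Its relative Guca2b (uroguanylin), the receptor Gucy2c and the phosphodiesterase Pde5a had ratios of 0.03, -0.02 and 0.11. One colonocyte held 125 of the 226 Guca2b UMIs, and without it Guca2b was at 32.0 CPM with a ratio of -1.13, past the limit for lower.

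Brush border and keratin genes lay mostly on one side: 15 of 16 were higher, none was lower, and the median was 2.02. Krt20 led it (5.24), followed by the actin bundler Espn (3.58) and by Cdhr5 and Cdhr2, protocadherins that link the tips of microvilli (3.20 and 3.18). Villin (Vil1) was at 1.63, and Krt18 was the member between the limits (0.10). Of 16 surface and barrier genes, 10 were higher and 3 lower, with a median of 1.79. Ceacam20 (5.71), the transglutaminase Tgm3 (5.41) and the membrane protein Emp1 (5.27) had the largest ratios. Lypd8, a secreted and anchored protein that keeps flagellated bacteria off the epithelium, was found in all 114 colonocytes and ran from 1506 through 21567 to 71028 CPM, with a summed level of 23403 against 1597 CPM (3.87). The transmembrane mucins Muc3 and Muc13 were higher (3.43 and 1.22) and Muc1 and Muc4 lower (-2.79 and -1.69). Among 14 tight junction genes, 7 were higher and 2 lower. Cldn23 (3.19) and the sealing claudins Cldn8 (2.62) and Cldn4 (1.56) were higher, and the pore-forming Cldn2 (-4.04) and Cldn15 (-3.10) were lower.

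Of 16 antimicrobial genes, 6 were higher and 5 lower, the latter a share near that of all genes, and the median was -0.05. Saa1, a serum amyloid A protein that is made by gut epithelium in contact with bacteria, had a log2 ratio of 5.84, and its per-cell values ran from 0 through 1867 to 31997 CPM. The cytokine Il18 was at 3.31 and the gasdermins Gsdmc4 and Gsdmc2 at 2.53 and 2.10, although with a rule of 0.2% of UMIs Gsdmc2 was at -0.25. Retnlb, a goblet cell product, was at -4.70. Reg3b, a lectin that binds bacteria, was at 3538 CPM in colonocytes and 3693 CPM in other epithelial barcodes. Its level came from few cells: 9 colonocytes exceeded 5000 CPM, 3 barcodes held 50% of the UMIs, and the median was 87.6 CPM, against 103 CPM in barcodes without Epcam.

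Energy genes of the colonocyte were split. All 5 measured genes of sulfide oxidation other than Suox were higher (list median 1.94): Selenbp1, the methanethiol oxidase, was at 1663 against 117 CPM (3.83), the persulfide dioxygenase Ethe1 at 2436 against 260 CPM (3.23), Mpst at 2.05, the thiosulfate sulfurtransferase Tst at 1.83 and the sulfide quinone oxidoreductase Sqor at 1.62. Selenbp1 was present in all 114 colonocytes, from 49 through 1524 to 4848 CPM. Among 18 genes of fatty acid oxidation and ketone synthesis, 7 were higher and none lower, with a median of 0.75. The monocarboxylate carriers that bring in butyrate, Slc16a1 (2.51) and Slc5a8 (1.49), were among those that were higher, together with Acadm (1.48) and Cpt1a (1.05). Of 92 nuclear genes of oxidative phosphorylation, 9 were higher and 4 lower, with a median of 0.26. Xenobiotic genes had 11 of 19 members higher and 4 lower. The cytochromes Cyp3a13 (5.33) and Cyp2c55 (5.10) and the efflux pumps Abcg2 (4.04) and Abcb1a (3.19) stood highest, and Gstm1 (-2.62), Adh1 (-1.54) and Sult1a1 (-1.43, but 0.20 under 10% mitochondrial UMIs) lowest.

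**Figure D2:**
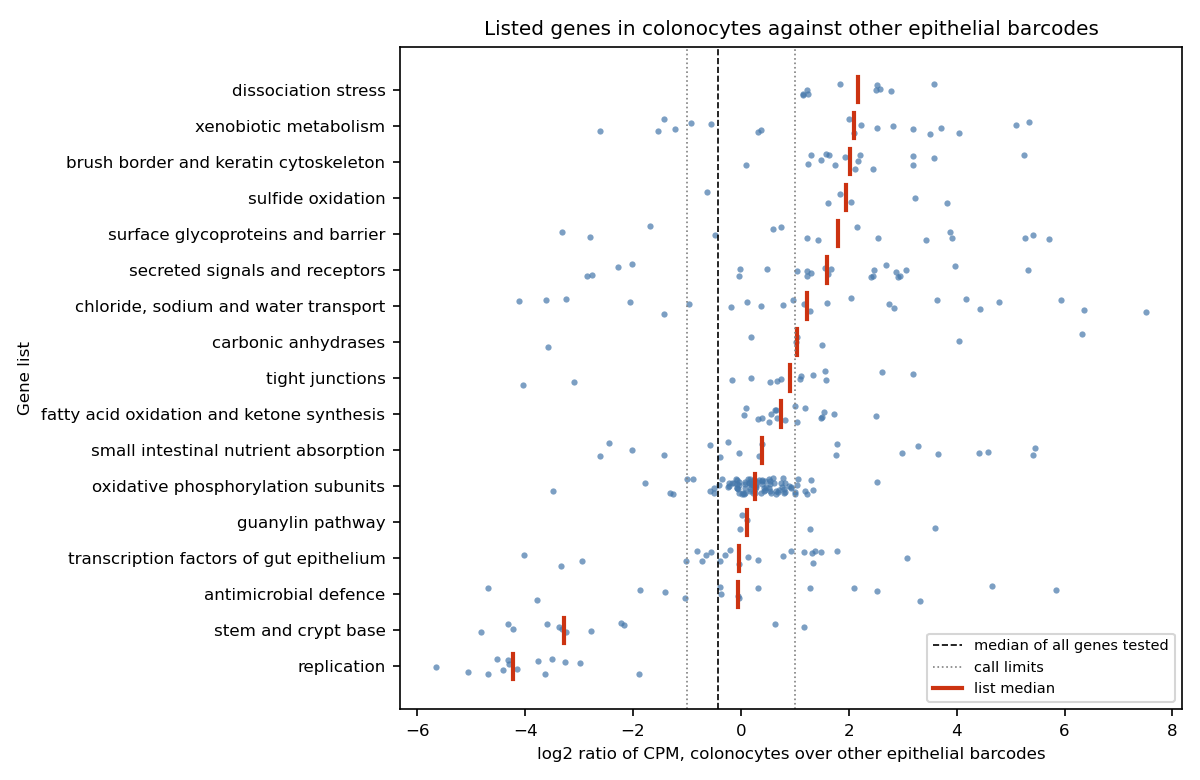
Log2 ratio of CPM, colonocytes over other epithelial barcodes, for each gene (point) of 17 lists; red bars mark list medians, the dashed line the median of all genes (-0.42) and dotted lines the limits of a call. Brush border genes lie almost wholly right of the upper limit and replication genes wholly left of the lower one.

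Of 23 transcription factors of gut epithelium, 7 were higher and 4 lower, with a median of -0.04. Klf4, which acts in terminal differentiation, was at 1425 against 169 CPM (3.07), the mineralocorticoid receptor Nr3c2 at 1.78, Hnf4a at 1.48 and Pparg at 1.32. Cdx2, which sets intestinal identity, was at 0.32. Factors of the secretory and progenitor states, Atoh1 (-4.02), Spdef (-3.33) and Sox9 (-2.95), were lower. Secreted signals and receptors had 17 of 24 genes higher and 4 lower. The epidermal growth factor family ligands Areg (5.32) and Hbegf (3.96) led, and the inhibitory Smads Smad7 (2.92) and Smad6 (1.68), the inhibitors of helix-loop-helix factors Id1 (2.47), Id3 (2.41) and Id2 (1.05) and the bone morphogenetic protein ligands Bmp2 (2.70) and Bmp3 (1.31) were higher, while the receptor gene Bmpr1a was at -0.04. The ephrin receptors of the crypt, Ephb2 and Ephb3, were at -2.86 and -2.75 (Ephb3, with 4 UMIs, at 0.16 under 10% mitochondrial UMIs) and the ligands Efnb1 and Efnb2 at 1.56 and 2.87.

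All 14 replication genes were lower (median -4.22), and 10 of 12 stem and crypt base genes were lower (median -3.28), in cells that the rule had chosen for few Mki67 and Top2a UMIs. With no limit on those 2 genes, which made 121 colonocytes of 114, the medians were -2.69 and -2.19 and Lgr5 was at -2.68. Among genes named above, Slc12a2 was then at -2.95, Kcnn4 at -2.16, Cldn2 at -2.76, Cldn15 at -2.24 and Ephb2 at -2.05, all still lower. Lgr5 had 3 UMIs in the colonocytes and 2231 in other epithelial barcodes, a log2 ratio of -4.23 (-6.51 to -2.68). Prom1 was the stem list member that was higher (1.16), and Olfm4 had no UMI in colonocytes. All 10 genes of the response to tissue dissociation were higher too, with Atf3 (3.59), Fos (2.79), Dusp1 (2.58) and Jun (2.51) at the top and a list median of 2.17. These genes and the mitochondrial share were higher in the same barcodes as the gene groups above, and their part in those ratios was not tested. In a comparison limited to barcodes under 10% mitochondrial UMIs, which left 10 colonocytes, the median of all genes was 0.45, with 5275 genes higher and 2138 lower. Counts under 3 were still set to 3 in this comparison, which raised the ratio of every gene with under 3 UMIs in the 10 colonocytes. The part of this floor in the counts was not tested. There the stress list had a median of 1.34 with Fosb at -0.95, the brush border list 1.71, the sulfide list 2.22, and the replication list -2.32 with Cdc6 at 0.050.

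Over all genes, the 15 highest ratios among named genes with at least 500 UMIs included Aqp8 (7.52), the Ly6 family genes Ly6m (6.91) and Ly6g (6.22), Mal (5.77), a proteolipid of apical sorting, Clca4b (5.68), the carboxylesterase Ces2c (5.56), the serine protease Prss30 (5.40) and Sptssb (5.34), a subunit of the enzyme that starts sphingolipid synthesis. Their spread over cells differed. Ces2c was present in all 114 colonocytes and Prss30 in 110, but Ly6m was found in 35, Mal in 52 and Clca4b in 24. The 10 lowest ratios were those of the enteroendocrine granin Chgb, the factor Cbfa2t3 and 8 genes of cell division, among them Birc5 (10 UMIs in colonocytes, log2 ratio -5.66) and Pclaf (18 UMIs, -5.50). The limit on Mki67 and Top2a bears on these, and without it Birc5 was at -2.36 and Pclaf at -2.25. Clca4a and Clca4b, Ly6g and Ly6m, Reg3b and Reg3g, the Gsdmc genes and Hspa1a and Hspa1b are close relatives, so the split of reads within each family is uncertain.

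Genes followed the rule's own UMIs in different ways across Epcam barcodes with low Mki67 and Top2a. With 0, 1 to 4, 5 to 9, 10 to 19, 20 to 49, 50 to 99 and 100 or more UMIs of Slc26a3 and Car4 there were 3230, 609, 86, 65, 57, 48 and 9 barcodes. Krt20 was at 28.6, 89.2, 146, 889, 1596, 1828 and 2092 CPM in these bins and Aqp8 at 1.29, 5.08, 13.3, 40.4, 108, 890 and 1350 CPM. Krt20 was near its full level from 20 UMIs on, whereas most of the Aqp8 lay at 50 and above. Car1 had its highest level in the middle, with 121, 1641, 8273, 12235, 17389, 10734 and 729 CPM. Guca2a stood at 8230 and 8826 CPM for 20 to 49 and 50 to 99 UMIs and at 2579 CPM in the last bin. Saa1 was at 2203, 6372 and 17542 CPM in the last 3 bins and Tgm3 at 413, 1116 and 1629. Slc12a2 stayed at 485, 520 and 357 CPM up to 9 UMIs and was at 80.8 CPM for 10 to 19 and 11.8 CPM for 50 to 99. The last bin holds only 9 cells. Because the bins are cut by a measured level, the order is a description.

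The colonocytes fell into 4 numbered clusters of 42, 27, 26 and 19 barcodes. They were grouped on variable genes without the rule genes, the listed genes, mitochondrial or ribosomal genes. Leading genes outside the lists, such as Clca4b, Tac1 and Ly6m, were open to this grouping. Their separation between clusters is therefore a description and no independent support. A lower resolution gave 2 clusters (adjusted Rand index against the 4 of 0.33), a higher one 5 (0.83), 1000 variable genes 4 (0.79) and 10 principal components 4 (0.67), so the borders depend on the settings. Median depths were 23382.5, 22517, 31873 and 35377 UMIs, and median mitochondrial shares 15.5%, 13.4%, 12.0% and 14.3%. Slc26a3 was at 1062, 1195 and 1125 CPM in clusters 1 to 3 and at 482 CPM in cluster 4. The median UMIs of the rule genes per barcode were 47.5, 57, 71 and 26.

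In cluster 3, Clca4b was at 1176 CPM, with a UMI in 24 of 26 barcodes, and had no UMI in any barcode of the other clusters. Fabp6, an ileal bile acid binding protein, was at 968 CPM against 2.71, 1.61 and 1.47 CPM in clusters 1, 2 and 4, though its median within cluster 3 was only 52.3 CPM. The tachykinin precursor gene Tac1 was at 530 CPM, the leucine-rich glycoprotein Lrg1 at 244 CPM, Ly6c1 at 436 CPM, the interferon-induced GTPase Gbp2 at 180 CPM and the uridine phosphorylase Upp1 at 1975 CPM. Genes of antigen presentation by class II molecules, looked at after their values had been seen, were in all 26 barcodes: H2-Aa was at 1676 CPM (30.7, 16.1 and 295 in clusters 1, 2 and 4) and Cd74 at 4111 CPM (117, 56.2 and 911). Their transactivator Ciita had UMIs in 13 of the 26 barcodes and in 2 barcodes of all other clusters. Saa1 (15198 CPM), Lypd8 (40425), Muc13 (1986), the immunoglobulin transporter Pigr (2091), Dmbt1 (2870), Atp12a (596) and Cldn8 (285) also had their highest summed levels there. The same barcodes were low in Cyp2c55 (30.0 CPM, against 3156, 5906 and 4736), Guca2a (786), Emp1 (27.4) and Mpst (66.6). Dissociation genes were low in them as well, with Fos at 136 CPM against 1877, 2514 and 694 and Jun at 77.0 CPM against 1662, 2294 and 782, and their part in the difference was not tested.

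Cluster 2 was led by Ly6m (1244 CPM, in 25 of 27 barcodes, against 34.3, 18.3 and 60.2 CPM) and Clca4a (625 CPM, in 26 of 27). It held the highest levels of Aqp8 (1160 CPM), Krt20 (2760), Slc9a3 (251), the intestinal fatty acid binding protein Fabp2 (4998), Emp1 (1806), Areg (868) and Pdgfa (236), and, like cluster 4, no UMI of Atp12a. Cluster 4 had 41918 CPM of Car1, and 14 of its 19 barcodes exceeded 20000 CPM, as did 6 colonocytes of the other clusters. Prap1 (275 CPM), the vitamin D responsive calcium binder S100g (500), the bile acid transporter Slc10a2 (132), Slc12a2 (70.5) and Cftr (52.9) were highest there, Aqp8 was lowest (91.1) and Scnn1a was at 13.2 CPM. Mal was at 601 CPM, but 1 barcode held 231 of its 409 UMIs there, and its median per barcode was 162 CPM in cluster 4 and 224 CPM in cluster 2. Of the 9 colonocytes with over 5000 CPM of Reg3b, 7 were in cluster 4 and 2 in cluster 3. Cluster 1 was led by Clca1, Zg16 and Fcgbp, that is by the 1 barcode with goblet markers named above. Aside from these it had the highest levels of Aqp4 (590 CPM), Hao2 (510) and Edn1 (75.9), and with cluster 3 it shared Tgm3 (1207 and 1236 CPM, against 198 and 131).

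**Figure D3:**
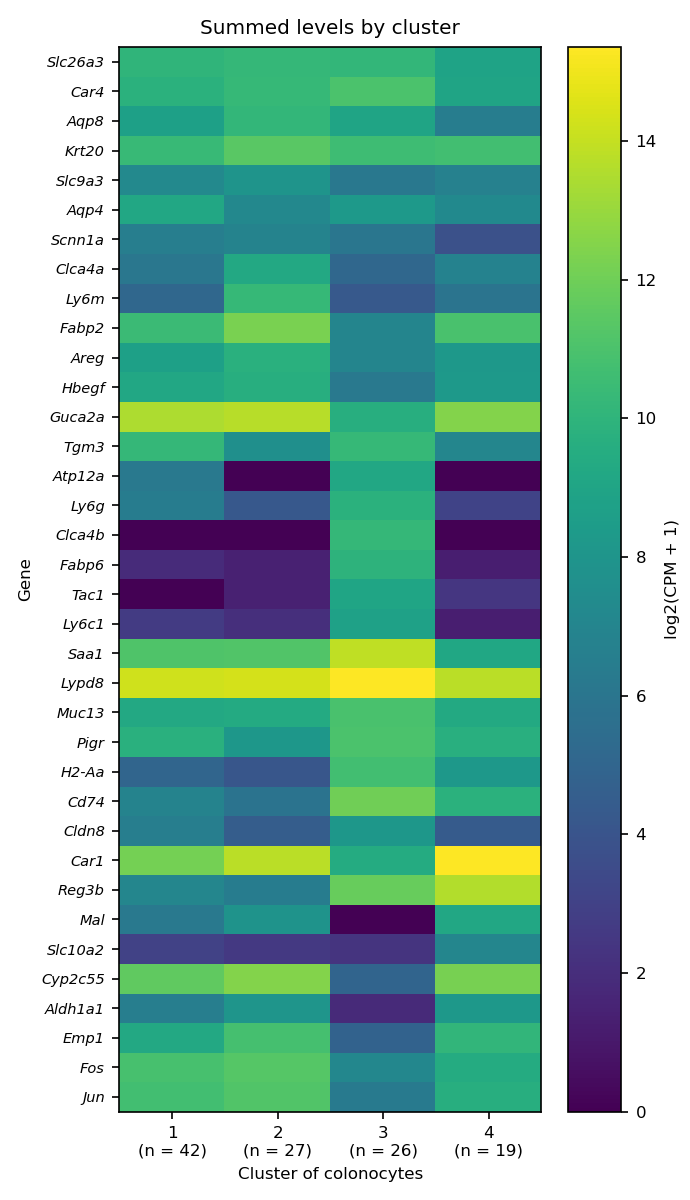
Summed level of 36 genes in each of the 4 clusters of colonocytes, as log2(CPM + 1) on the colour scale. Cluster 3 holds Clca4b, Fabp6, Tac1 and Ly6c1 and is low in Cyp2c55 and Emp1, cluster 2 holds Ly6m and Clca4a, and cluster 4 has the highest Car1 and Reg3b.

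Set against absorptive cells of the small intestine, colonocytes had more of Car1, Car2, Aqp4, Aqp8 and of 5 of 6 sulfide oxidation genes, and less of most genes of nutrient uptake. The transport list as a whole was mixed, with 7 of 21 genes higher and 4 lower when Slc26a3 is left out. The 168 small intestinal enterocytes were retained Epcam barcodes with at least 1% of UMIs from Fabp1, Apoa1 and Apoa4 and low Mki67 and Top2a, so these 3 genes are no finding. Of 7664 genes with enough UMIs, 1014 were higher in colonocytes (13.2%) and 1131 lower (14.8%), with a median of -0.07. Tissue and library cannot be told apart here, and retained barcodes had a median of 22072 UMIs in the large and 12145.5 in the small intestinal library. Of the deposited barcodes, 2060 of 8646 in the large and 5497 of 8842 in the small intestinal library were over the mitochondrial limit. The enterocyte pool also held 2066 CPM of the Paneth cell defensin Defa24, against 0 in colonocytes, and its source was not tested. Car1 had 42796 UMIs in the colonocytes and none in the enterocytes, a log2 ratio of at least 14.10 with 3 UMIs over the group as the floor (13.80 as the exact 95% lower bound). Tgm3 (2495 UMIs against 0), Hao2 (911), Atp12a (539) and Cldn8 (350) gave ratios of at least 10.00, 8.55, 7.79 and 7.17. Aqp4 (1086 UMIs against 2, log2 ratio 8.80, 7.53 to 12.43 with the floor of 3), Aqp8 (7.97) and Car2 (6.45) were higher, and so were Slc26a3 (2.67) and Car4 (1.41), which chose the colonocytes. Slc26a6, the small intestinal anion exchanger, had 2 UMIs against 1038, a ratio of -8.14 (-11.77 to -6.86). Guanylin and uroguanylin took opposite sides, with Guca2a at 8041 against 376 CPM and Guca2b at 71.2 against 1774 CPM.

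All 5 sulfide genes other than Suox were higher than in enterocytes, led by Tst (6.27), Selenbp1 (5.67) and Ethe1 (5.54). Of 17 genes of the fatty acid list, 11 lay between the limits, and Slc16a1 (2.45) and Slc5a8 (1.48) were higher. Brush border genes did not separate the cells as a list: 3 of 16 were higher, 4 lower, and the median was -0.11, with Krt19 at 1.80 and Krt8 at 1.48 and with Pls1 at -1.63 and Vil1 at -1.51. Without the 3 genes that chose the enterocytes, 20 of 22 nutrient uptake genes were lower, with a median of -5.12, and none was higher. Fabp2 was lower (-2.71) but still at 1928 CPM in the colonocytes. The sucrase Sis had 0 UMIs against 7975, the aminopeptidase Anpep 0 against 4984 and the lactase Lct 0 against 908. Mep1a (0.90) and Slc10a2 (-0.98) were the members between the limits. Pparg (3.11) and Klf4 (2.81) were among the factors with the largest ratios, and Creb3l3 (-7.89) and Maf (-5.78) those with the smallest among factors with over 3 UMIs in the colonocytes. Over all genes, Saa1 (11.09), the zymogen granule gene Sycn (10.87, 9.33 to 13.15, against 3 UMIs), Wfdc2 (9.31, 8.42 to 16.20, against 1 UMI), Sptssb (at least 9.16) and the amino acid transporter Slc6a14 (8.99, 7.72 to 12.63, against 2 UMIs) were highest. Mptx1 was at 10.15 (8.60 to 12.43, against 3 UMIs), but 2204 of its 2776 UMIs were in the 3 barcodes with other cell types' markers, and its ratio without them was 7.92. All 10 dissociation genes were higher in colonocytes here as well (median 3.29), and their part in the other ratios was not tested. A total of 223 small intestinal barcodes also passed the colonocyte rule, 8.09% of the 2756 retained, and 54 of them were among the enterocytes.

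Visium sections, which the rule did not use, were read for the same genes. A spot of a section is a small region with several cells, so fewer cells of a type and less RNA per cell cannot be told apart. Large intestinal sections held 2094 and 2179 spots with at least 500 UMIs, and small intestinal ones 2094 and 2571. Aqp8 was at 891 and 952 CPM in the large and at 0.575 and 0.399 CPM in the small intestinal sections. Slc26a3 was at 516 and 522 against 38.5 and 40.4 CPM, whereas Car4 was at 963 and 1050 against 1012 and 1157 CPM and so did not part the tissues. Car1 (279 and 282 against 0.287 and 0.432 CPM), Tgm3 (511 and 569 against 0.780 and 0.698), Atp12a (428 and 416 against 0.575 and 0.631) and Ly6g (273 and 296 against 0.287 and 0.199) were all but missing from small intestine. Selenbp1 was at 783 and 812 against 39.4 and 39.7 CPM. For these genes other than Car4 the sections of the 2 tissues did not overlap.

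Of 15373 genes, 2058 were higher in large intestinal sections (13.4%) and 2315 lower (15.1%), counting a log2 ratio of 1 with sections that did not overlap. Among 7640 genes tested in both kinds of data, 360 were higher in both. They were 35.5% of the 1013 genes higher in colonocytes than in enterocytes and 41.7% of the 864 higher in the sections, beside 11.3% of all these genes higher in the sections and 13.3% in colonocytes. Lower in both were 492 genes, 44.2% of 1112 and 58.9% of 836, beside 10.9% and 14.6% of all. All 23 measured genes of nutrient uptake were lower in large intestine, and 4 of 6 sulfide genes were higher. Ly6m and Emp1, at 1.52 and 3.32 in colonocytes over enterocytes, were lower in large than in small intestinal sections (-1.91 and -1.37). Krt20 (-1.01) and Clca4a (-1.71) were lower in the sections and between the limits in the cells (0.66 and -0.04), and Clca4b was lower in both (-1.25 in each). Guca2a was at 768 and 802 against 843 and 677 CPM in tissue, although it was higher in colonocytes than in enterocytes, while Guca2b was lower in large intestine in both (-4.36 in sections). Reg3b was at 96.7 and 108 CPM in the large intestinal sections and at 35342 and 30896 CPM in the small intestinal ones.

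**Figure D4:**
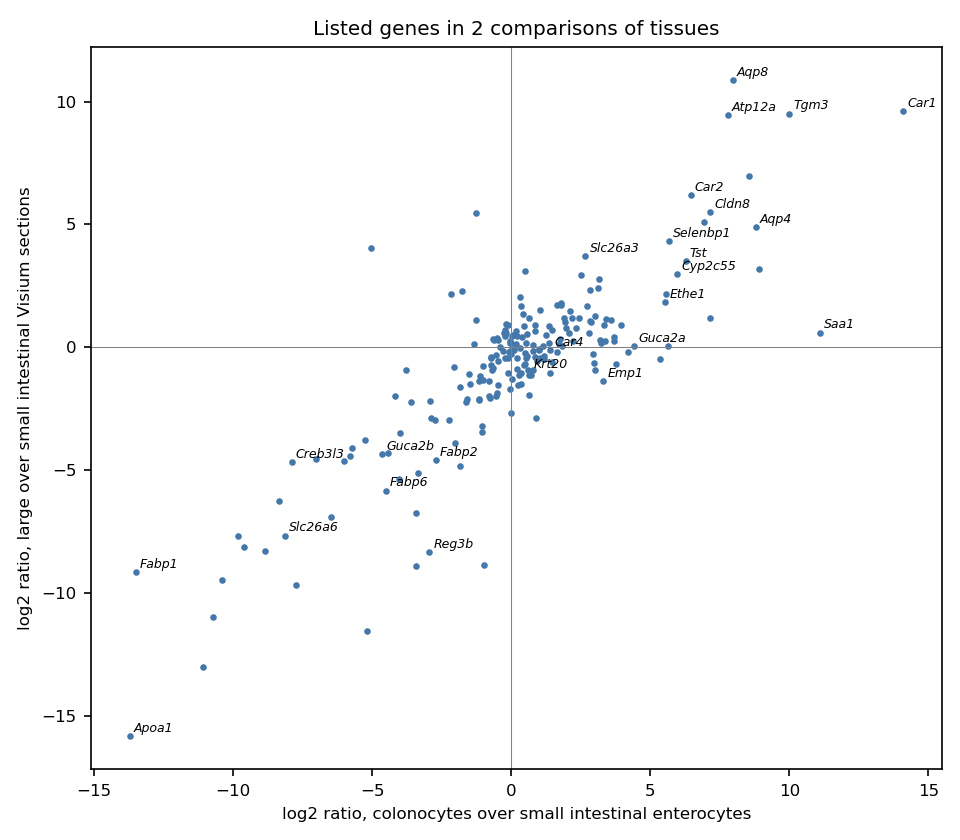
Log2 ratio of colonocytes over small intestinal enterocytes (x axis) and of large over small intestinal Visium sections (y axis) for genes of the lists, with 1 point per gene and some genes named. Car1, Aqp8, Atp12a and Tgm3 lie at the upper right and Apoa1 and Fabp1 at the lower left, while Saa1, Guca2a and Emp1 lie to the right with section ratios of 0.60, 0.05 and -1.37.

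Within the large intestine, the upper quartile of spots by Slc26a3 and Car4 UMIs after thinning to 2000 UMIs (521 and 542 spots, a median of 9 such UMIs) was compared with the other 1563 and 1624 spots (a median of 1). Of 7900 genes, 435 were higher in both sections (5.51%) and 1207 lower (15.3%). Among the genes that were also tested in the single cells, 387 of 434 that were higher in these spots, 89.2%, were higher in colonocytes than in other epithelial barcodes, beside 14.1% of all 7886 genes. They were 34.8% of the 1113 colonocyte genes, beside 5.50% of all these genes that were higher in the spots. Slc26a3 and Car4 chose both the spots and the colonocytes, so this overlap is a description and no independent support. Clca4a had log2 ratios of 3.54 and 3.85 in the 2 sections, Clca4b 3.05 and 3.18, Ly6m 3.01 and 2.81, Saa1 2.76 and 2.76, Aqp8 2.56 and 2.62, Atp12a 2.57 and 2.58, Slc9a3 2.50 and 2.53 and Krt20 2.37 and 2.54. Slc12a2 (-1.79 and -1.96) and Cldn2 (-2.07 and -2.41) were lower, as were all 11 measured replication genes. Of the 16 brush border genes 9 were higher and none lower. Some genes that were higher in colonocytes than in other epithelial barcodes were not higher in these spots: Car2 was at -0.21 and -0.29, Aqp4 at -0.89 and -0.85 and Hao2 at -0.81 and -0.86. Fos was at 293 and 285 CPM in the rich spots and at 73.9 and 68.0 CPM in the others, and Jun at 130 and 122 against 50.5 and 55.4 CPM.

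**Figure D5:**
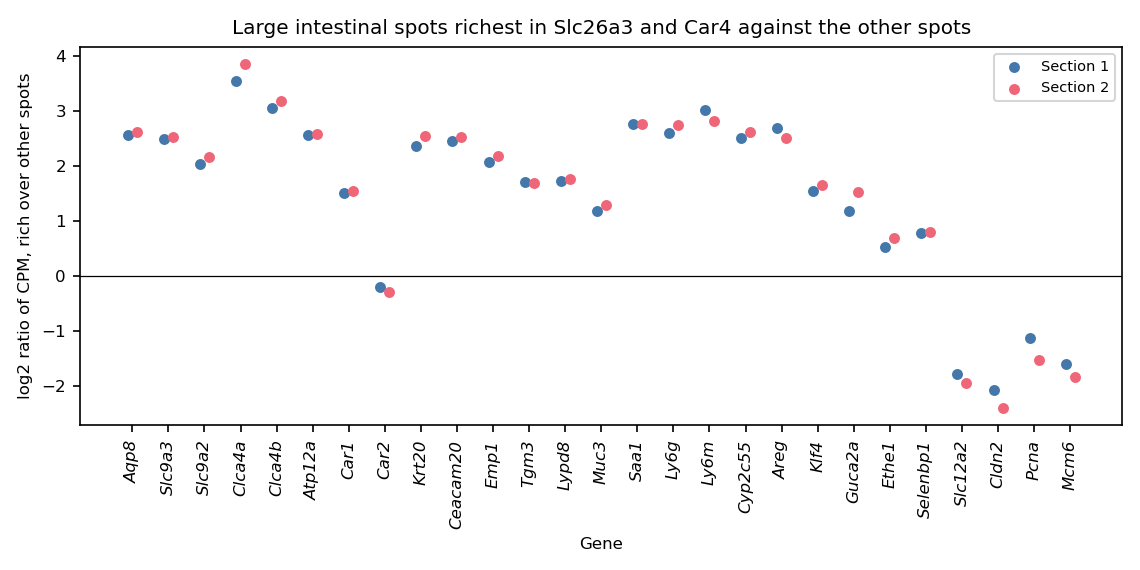
Log2 ratio of CPM between spots rich in Slc26a3 and Car4 and the other spots in each of 2 large intestinal sections (points), for 27 genes. The 2 sections lie close together, with Clca4a, Clca4b, Ly6m and Saa1 highest and Slc12a2, Cldn2, Pcna and Mcm6 below 0.

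The leading genes of the clusters were also read within the rich spots. When the rich spots were split into the upper quartile by UMIs of cluster 2's leading genes (130 and 136 spots) and the rest, the leading genes of cluster 3 had log2 ratios of -0.39 and -0.62 in the 2 sections. A split by the genes of cluster 3 put those of cluster 2 at -0.37 and -0.34 and those of cluster 4 at 0.47 and 0.41. The split by cluster 4 put the genes of cluster 3 at 0.40 and 0.44 and those of cluster 2 at -0.37 and -0.46. The split by cluster 1, whose leading genes include goblet markers, put the genes of cluster 2 at 0.45 and 0.48. It put those of cluster 3 at -0.19 and -0.30 and those of cluster 4 at -0.29 and -0.34. The genes of cluster 1 were at 0.25 and 0.29 in the split by cluster 2, and at 0.03 and -0.16 in that by cluster 3. The same ratios for unrelated genes were not computed, so the size of these values is a description.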

How the data were processed

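The authors deposited UMI counts per gene and barcode, made with Cell Ranger 6.0.1 for the single-cell libraries, per the submitters' processing notes and the file headers, and with Space Ranger 1.2.1 for the Visium sections, per the file headers; the build is mm10 per the submitters' processing notes. The members, lists and tests were chosen with earlier results of these data known. Named genes were list members, chosen by extreme ratios or known roles, and the 15 highest and 10 lowest genes against other epithelial barcodes and the 8 highest and 8 lowest against enterocytes, provided the group with more held 500 or more UMIs; genes outside this were chosen after their values were seen. Unnamed gene models, mitochondrial, ribosomal, sex-linked and immunoglobulin genes were left out of those ranks.

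UMIs were summed per group and divided by the group total to give CPM. Counts under 3 were set to 3 in ratios. Intervals are exact 95% Poisson, Poisson-ratio or Clopper-Pearson intervals and cover counting error only. No p-values were computed, because each group is 1 library and the sections are technical duplicates. Doublets were ranked with Scrublet at 0.8% per 1000 barcodes and were left in. Clusters came from Scanpy 1.11.5 (Leiden, 2000 variable genes, 20 components, resolution 0.5). The ratio and thinning steps were tested on simulated data. Total deposited UMIs were 142501907 and 78482770 for the large and small intestinal cell libraries and 24356162 to 43833127 per section. Alternatives varied the rule, the comparator, the scaling, the minimum of UMIs and the sections used. Some items are not reported here.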

Additional observations from a re-analysis of the deposited data

How the results depend on the processing

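No paired analysis was possible because each single-cell group is 1 library and no comparison had a test. Colonocytes were 2.89% of retained barcodes at 10 or more UMIs of Slc26a3 and Car4, 1.12% at 40 or more or at 0.2% of UMIs, and 0.192% (10 cells) at a mitochondrial limit of 10%. Genes higher than in other epithelial barcodes numbered 3377 at 0.2% of UMIs, 5275 at the mitochondrial limit of 10% (2138 lower) and 3062 with the median set to 0. They numbered 1136 with at least 500 UMIs over both pools and 9738 with no minimum. With no minimum, every added gene was called higher through the floor of 3 UMIs, as the comparator pool was far larger, and 4756 stayed lower. At the mitochondrial limit of 10%, the same floor raised the ratios of genes with under 3 UMIs in the 10 cells. Against enterocytes 290 were higher and 318 lower with at least 500 UMIs, and 2101 and 1813 with no minimum. In the sections 1336 genes were higher with at least 500 UMIs and 1852 to 2205 when 1 section was left out. In rich spots 816 were higher with the median set to 0 and 525 to 552 in single sections. Direction turned for these log2 ratios against other epithelial barcodes: at 10 UMIs Anpep 2.10 and Apoa1 6.16, at 40 UMIs Prkg2 -0.59, at 0.2% Prkg2 -1.07, Gsdmc2 -0.25 and Gsdmc3 -0.60, after thinning Anpep 0.12, and at the 10% mitochondrial limit Gstm3 0.96, Mttp 0.90, Fgfr3 0.11, Reg3g 1.39, Fosb -0.95, Anpep 1.89, Scnn1b 1.504, Sult1a1 0.20, Apoa1 0.57, Znrf3 0.57, Cdc6 0.050 and Ephb3 0.16. With the 223 small intestinal barcodes that passed the colonocyte rule as comparator, chosen after seeing the data, Epha2 was at 0.063, Cldn4 5.21, Zg16 -0.11, Nos2 1.40, Gsdmc2 -1.06 and Gsdmc4 -0.31. Without the colonocyte with most Guca2b UMIs, also chosen after seeing the data, Guca2b was at -1.13 against other epithelial barcodes and -5.79 against enterocytes. The causes were not tested. A turn was counted only where the main log2 ratio was at least 1 in either direction. Of the other values and settings for genes and lists, 3342 moved by less than their interval and 1676 by more. These include changes of sign where the main ratio lay between the limits.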
